A study of Mus musculus with 16 samples.

Results

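The vascular endothelial growth factors and their receptors were followed in primary hippocampal cultures of newborn C57BL/6N mice, across silencing of the DNA methyltransferase Dnmt3a1 and a burst of synaptic activity. The family was taken by name and has 8 genes of the 55385 listed in each library, namely the 5 ligands Vegfa, Vegfb, Vegfc, Vegfd and Pgf and the 3 receptor tyrosine kinases Kdr, Flt1 and Flt4. All cultures carried a recombinant adeno-associated virus in which the U6 promoter drove a short hairpin RNA and the chicken beta-actin promoter drove GFP. The hairpin was either Control-shRNA or Dnmt3a1-shRNA, and each culture was taken at baseline (0 h) or after 4 h of bicuculline, a blocker of GABA-A receptors that releases synchronous bursting of the network. This gave 4 groups of 4 libraries, 16 in all. The libraries of a group came from independent neuronal preparations. A single hairpin sequence stands for the knockdown, the virus reaches mainly neurons while the RNA came from the whole culture, and there was no uninfected group among the libraries used here.

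VEGF ligands are secreted dimers that bind receptor tyrosine kinases on the cell surface. VEGFA acts mainly through VEGFR2, the product of Kdr, while VEGFR1, the product of Flt1, binds VEGFA, VEGFB and PlGF and can act as a trap, and VEGFR3, the product of Flt4, binds VEGFC and VEGFD and is best known from lymphatic vessels. The neuropilins Nrp1 and Nrp2 serve as co-receptors for VEGFs and also for the class 3 semaphorins that guide axons. In the brain these receptors are best known from endothelial cells, Vegfa is a classical target of hypoxia-inducible factors (HIF), and VEGF signalling has also been described in neurons and neural progenitors.

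Estimated counts summed to between 28912697 and 29586355 per library, so depth hardly differed between groups, and TMM factors ran from 0.871 to 1.12. Dnmt3a, the gene targeted by the hairpin, was at 14.2% of the control level at baseline and at 13.9% with bicuculline. These values sum all transcripts of the gene, so the isoforms Dnmt3a1 and Dnmt3a2 were not told apart. The activity genes Arc, Fos and Npas4 rose with bicuculline by between 5.64 and 7.32 on the log2 scale in the Control-shRNA cultures. After knockdown at baseline Fos was called higher in edgeR's quasi-likelihood test (0.58, SE 0.19, adjusted p = 0.0437), with overlapping libraries. Arc and Npas4 were not called there (-0.39 and 0.61, adjusted p = 0.311 and 0.0712). None of these genes was called for knockdown with bicuculline. The paper reported all of them as unaltered by knockdown. Scaling by library size alone moved the median gene with bicuculline to a log2 fold change of -0.15 in the Control-shRNA and -0.16 in the Dnmt3a1-shRNA cultures, and the calls in the Control-shRNA cultures then split into 1365 higher and 3032 lower, against 1854 and 1911 under TMM. Changes below are therefore relative to the bulk of genes, on the TMM scale. Neuronal markers summed to between 6670 and 8830 CPM, counts scaled to the TMM-adjusted library total, over all libraries. Astrocyte markers summed to 697 to 894 CPM at baseline and 716 to 954 CPM with bicuculline in the Control-shRNA cultures, and to 709 to 1030 and 861 to 1080 CPM in the Dnmt3a1-shRNA cultures. Across the 7 astrocyte markers tested, the median log2 fold change was 0.39 for knockdown at baseline and 0.41 for knockdown with bicuculline, with none called, and it was 0.31 for bicuculline in each arm, with 1 called higher. For knockdown at baseline it was 0.33 over the 7 mural markers tested and 0.31 over the 5 fibroblast markers. Of 15 endothelial markers, 13 averaged under 1 CPM in each group, the exceptions being Egfl7 and Eng, while Sox17 was at 0 in every library of 3 groups and the tight junction gene Cldn5 had between 0 and 2 counts in any library. In bulk RNA, fewer cells of a type cannot be told apart from less RNA per cell.

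The promoters of the members are given first as a description, since the knockdown lowered the RNA of an enzyme that methylates CpG sites. Of the genes printed below, Kdr alone was called after knockdown, while Vegfa, Vegfd and Flt1 were called with bicuculline only. RefSeq holds 10 promoter windows for the 8 members on GRCm38.p6, each of 300 bases from 250 before to 50 after an annotated start. CpG number separated the members widely. Vegfc had 35 CpG in its window, which is as many as or more than 93.8% of all 32851 promoter windows, followed by Vegfb with 31, Flt1 with 29, Flt4 with 26, Pgf with 23 in its upstream window and 7 in its downstream window, Kdr with 19 and Vegfa with 16 upstream and 10 downstream. The Vegfd window had 2 CpG, a number not exceeded by 23.3% of all windows, while the median window held 7. The following lines hold the 250 bases before the start of 4 genes called in at least 1 comparison, from the CpG-poor Vegfd to the CpG-rich Flt1. Capitals mark GGGCGG, the GC box bound by Sp1-type factors, on either strand, and in Flt1 also TGACGTCA, the full cAMP response element.
Vegfa, chr17:46032378-46032627, minus strand: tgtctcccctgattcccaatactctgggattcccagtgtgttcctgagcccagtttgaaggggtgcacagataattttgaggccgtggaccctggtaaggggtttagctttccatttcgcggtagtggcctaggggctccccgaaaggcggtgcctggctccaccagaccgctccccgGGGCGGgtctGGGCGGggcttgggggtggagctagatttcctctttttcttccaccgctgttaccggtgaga
Vegfd, chrX:164373272-164373521, plus strand: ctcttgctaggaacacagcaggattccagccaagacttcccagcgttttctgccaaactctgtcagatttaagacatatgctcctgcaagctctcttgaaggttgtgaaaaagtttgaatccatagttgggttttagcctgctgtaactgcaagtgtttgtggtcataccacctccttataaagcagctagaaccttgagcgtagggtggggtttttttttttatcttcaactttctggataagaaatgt
Kdr, chr5:75978456-75978705, minus strand: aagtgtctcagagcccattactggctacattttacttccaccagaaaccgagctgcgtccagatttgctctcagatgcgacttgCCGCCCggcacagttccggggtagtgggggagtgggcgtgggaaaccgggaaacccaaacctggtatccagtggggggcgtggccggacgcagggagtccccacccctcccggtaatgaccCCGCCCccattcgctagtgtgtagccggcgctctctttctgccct
Flt1, chr5:147726012-147726261, minus strand: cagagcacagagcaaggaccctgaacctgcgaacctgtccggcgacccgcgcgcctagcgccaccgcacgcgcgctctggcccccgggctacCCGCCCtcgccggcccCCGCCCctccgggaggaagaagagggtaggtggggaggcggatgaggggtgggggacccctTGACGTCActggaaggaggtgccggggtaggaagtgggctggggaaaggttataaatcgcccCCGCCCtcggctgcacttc

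GGGCGG was present in both Vegfa windows, in the upstream but not the downstream Pgf window and in those of Kdr, Flt1, Flt4, Vegfb and Vegfc, and it was found in 35.7% of all windows. The Vegfd window held none of the 5 motifs searched on both strands. TGACGTCA occurred in Flt1 alone among the members, 81 bases before its start, and in 1.79% of all windows. The hypoxia response core ACGTG was matched in the downstream Vegfa window, 211 bases before that start, but not in the upstream one, and 19.6% of all windows held it. That downstream start lies 7206 bases from the annotated beginning of Vegfa, so the match is inside the gene. Neither TGANTCA, the AP-1 site (7.81% of all windows), nor CACGTG, the E-box that contains the hypoxia core (7.15%), occurred in any member. DNA methylation was not measured in these libraries, and a match or its absence describes only these letters in these windows.

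Levels of different genes were compared in TPM, an abundance scaled for transcript length and library total. At baseline with Control-shRNA, Vegfb (100 ± 10 TPM) and Vegfa (89.2 ± 5.78 TPM) led the family (SD, n = 4), and their libraries overlapped. Vegfd followed at 14.2 ± 2.18 TPM and Pgf, which encodes placental growth factor, at 3.30 ± 0.391 TPM, each with no library in common with its neighbours in the order. Vegfc was at 0.787 ± 0.299 TPM and overlapped Kdr at 0.609 ± 0.136 TPM, below which came Flt1 at 0.107 ± 0.0150 TPM and Flt4 at 0.0494 ± 0.0338 TPM. Ligand transcripts summed to 208 ± 6.57 TPM and receptor transcripts to 0.765 ± 0.123 TPM, so the cultures held VEGF ligand RNA with little RNA of the receptors.

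The makeup of the ligand pool is given as a description, without a test. Vegfa made up 43.0 ± 3.39% of ligand TPM at baseline with Control-shRNA and 60.0 ± 5.93% with bicuculline, between 52.2% and 65.4% in single libraries. With Dnmt3a1-shRNA its share was 43.7 ± 4.80% at baseline and 65.8 ± 4.49% with bicuculline. The share of Vegfb was 48.2 ± 4.00% at baseline and 34.7 ± 6.02% with bicuculline in the Control-shRNA cultures, and 45.9 ± 5.10% and 29.2 ± 4.13% in the Dnmt3a1-shRNA cultures. Vegfa and Vegfb overlapped in both baseline groups and no longer did in both bicuculline groups, where Vegfa stood first in every library.

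**Figure D1:**
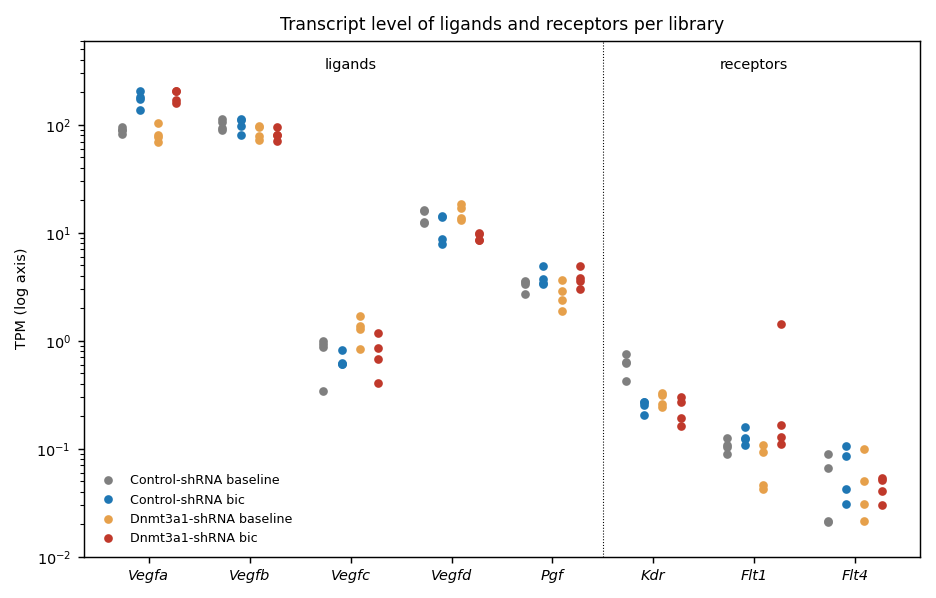
Transcript level in TPM on a log axis for the 5 ligands and 3 receptors; each point is 1 library, coloured by group (bic, 4 h of bicuculline). Vegfa and Vegfb lie between 69.0 and 207 TPM in every library, while Kdr stays at or below 0.751 TPM and the Flt1 point at 1.42 TPM stands alone.

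Vegfa, the main ligand of VEGFR2 (ENSMUSG00000023951.17, chr17:46016993-46032369 on GRCm38.p6, minus strand), had the smallest adjusted p of the 7 tested members with bicuculline in both arms. In the Control-shRNA cultures it was at 87.4, 73.5, 69.6 and 84.8 CPM at baseline and at 202, 145, 178 and 211 CPM with bicuculline. In the Dnmt3a1-shRNA cultures it was at 72.1, 75.0, 70.2 and 95.4 CPM at baseline and at 202, 215, 168 and 227 CPM with bicuculline. All 8 bicuculline libraries were above all 8 baseline libraries, and the lowest bicuculline value, 145 CPM, exceeded the highest baseline value, 95.4 CPM. Vegfa rose 2.33-fold with bicuculline in the Control-shRNA cultures (log2 fold change 1.22, SE 0.13, adjusted p = 5.45e-07 in the quasi-likelihood test of edgeR, adjusted over all genes tested by Benjamini and Hochberg's method) and 2.59-fold in the Dnmt3a1-shRNA cultures (1.37, SE 0.13, adjusted p = 1.06e-07). The difference between these responses was 0.15 (SE 0.18, adjusted p = 1.0), and knockdown moved Vegfa by -0.01 (SE 0.13) at baseline and by 0.14 (SE 0.12) with bicuculline, neither of which was called.

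A call here means an adjusted p under 0.05 with an absolute log2 fold change over 0.5, and 7 of the 8 members passed the filter on low counts. In the Control-shRNA cultures 2 of the 7 were called with bicuculline, Vegfa higher and Kdr lower, against 21.9% of all 17222 genes tested (10.8% higher and 11.1% lower). In the Dnmt3a1-shRNA cultures 4 of the 7 were called, with Vegfa, Pgf and Flt1 higher and Vegfd lower, against 25.8% of all genes (12.6% higher and 13.2% lower). Flt1 passed the filter on low counts through its bicuculline libraries, so its entry into the test was not independent of this rise. With at least 10 counts required in every library, Flt1 was not tested and 3 members were called. Libraries of the groups compared did not overlap for 3 members in the Control-shRNA cultures, against 39.7% of all genes. In the Dnmt3a1-shRNA cultures they did not overlap for 4 members, Flt1 among them, against 40.4% of all genes. The median log2 fold change of the 7 members was 0.21 in the Control-shRNA and 0.13 in the Dnmt3a1-shRNA cultures, beside 0.01 and -0.01 over all genes.

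**Figure D2:**
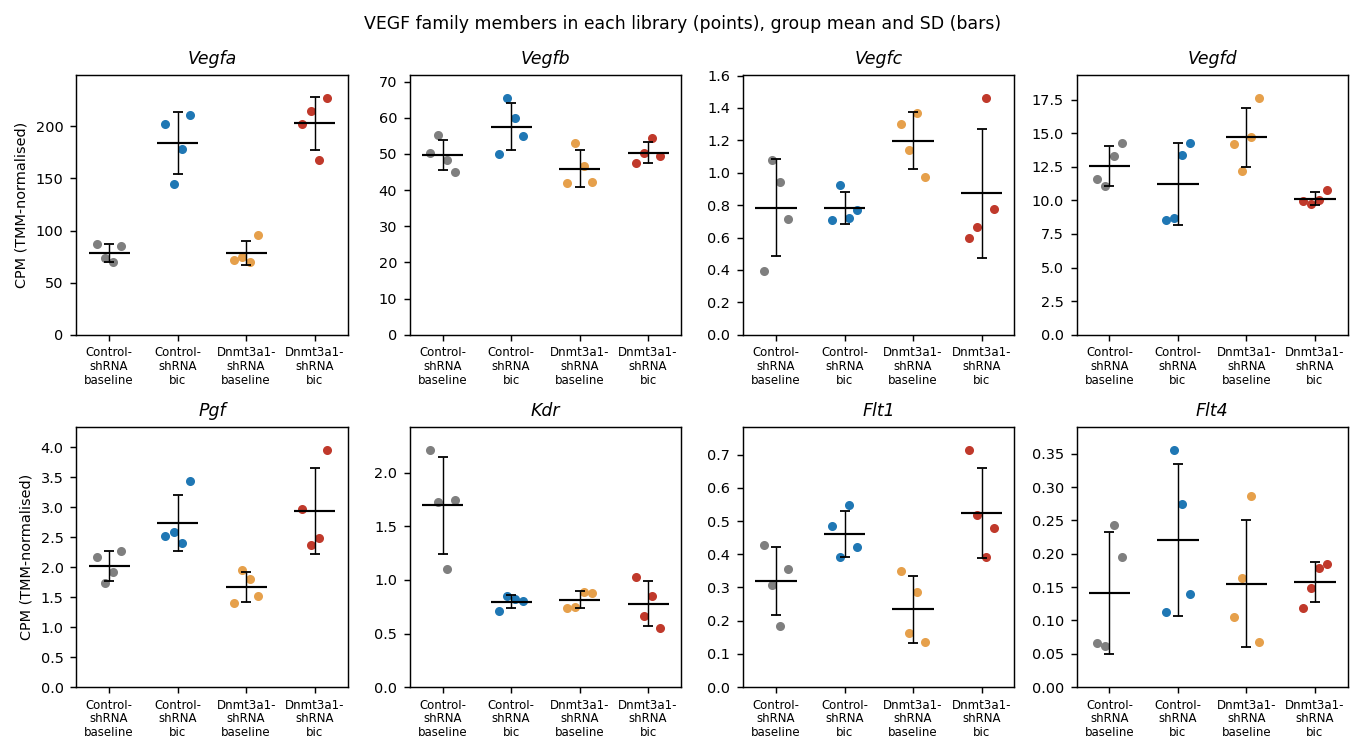
TMM-normalised CPM of each member in the 4 groups (points, 1 library each; bars, mean and SD of 4 libraries), with axes from 0 and a scale of its own per gene. Vegfa separates both bicuculline groups from both baseline groups, and Kdr separates the Control-shRNA baseline group (1.1 to 2.21 CPM) from the other 3 (0.554 to 1.03 CPM).

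Vegfb, a ligand of VEGFR1 with known roles in metabolism and cell survival (chr19:6982473-6987651, minus strand), was as abundant as Vegfa at baseline but showed no such response. It ranged from 45.1 to 55.2 CPM at baseline and from 50 to 65.4 CPM with bicuculline in the Control-shRNA cultures, with overlap. Its log2 fold change was 0.21 (SE 0.09, adjusted p = 0.0700) there and 0.13 (SE 0.09, adjusted p = 0.255) in the Dnmt3a1-shRNA cultures, and neither sign held under every scaling. With knockdown it differed by -0.11 (SE 0.09, adjusted p = 0.448) at baseline and by -0.19 (SE 0.09, adjusted p = 0.155) with bicuculline.

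Pgf (chr12:85166635-85177790, minus strand) encodes a ligand of VEGFR1 that is scarce in most healthy tissues. It had 66, 56, 63 and 70 counts at baseline and 68, 73, 70 and 98 with bicuculline in the Control-shRNA cultures, and 40, 60, 57 and 45 against 75, 64, 70 and 107 in the Dnmt3a1-shRNA cultures. On the CPM scale the groups did not overlap in either arm, and in TPM they overlapped in both. It rose with bicuculline by 0.81 (SE 0.18, adjusted p = 0.00135) after knockdown, while the value of 0.44 (SE 0.18, adjusted p = 0.0592) with Control-shRNA missed the threshold. The difference between these responses was 0.37 (SE 0.26, adjusted p = 1.0), so a difference between the arms was not shown. With limma on log2(TPM + 1) the rise after knockdown was 0.40 (adjusted p = 0.0501) and was not called.

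Vegfd, a ligand of VEGFR3 known in neurons for a part in keeping dendrites long and branched (chrX:164373378-164402650, plus strand), moved the other way. In the Dnmt3a1-shRNA cultures it was at 14.2, 12.2, 14.7 and 17.6 CPM at baseline and at 9.98, 9.74, 10 and 10.8 CPM with bicuculline, every treated library lying below every baseline one. It fell by 0.54 on the log2 scale there (SE 0.15, adjusted p = 0.00849), a call that was lost when baseline replicate 4 was left out (-0.44, adjusted p = 0.0369, under the fold limit). With Control-shRNA it was at 11.6, 11.1, 13.3 and 14.3 CPM at baseline and at 8.52, 8.66, 13.4 and 14.3 CPM with bicuculline. Replicates 1 and 2 of the bicuculline libraries were lower than every baseline library and replicates 3 and 4 were not, and the log2 fold change was -0.16 (SE 0.15, adjusted p = 0.442). The difference between the responses was -0.38 (SE 0.22, adjusted p = 1.0).

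Vegfc, the main ligand of VEGFR3 in lymphatic growth (chr8:54077606-54187096, plus strand), was scarce, with 12 to 43 counts per library. Baseline counts were 12, 35, 31 and 22 with Control-shRNA and 37, 35, 43 and 29 with Dnmt3a1-shRNA. The knockdown difference of 0.60 (SE 0.29, adjusted p = 0.178) at baseline was not called, and these groups overlapped. With bicuculline its log2 fold change was -0.01 (SE 0.30) in the Control-shRNA and -0.44 (SE 0.29, adjusted p = 0.234) in the Dnmt3a1-shRNA cultures. The latter would be called without bicuculline replicate 3, the library with 41 counts beside 15, 18 and 21 (-0.82, adjusted p = 0.0253).

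Kdr, which encodes VEGFR2, the principal signalling receptor for VEGFA (ENSMUSG00000062960.10, chr5:75932827-75978458, minus strand), was the only member called between the knockdown and control arms. Its counts were 67, 56, 36 and 54 at baseline with Control-shRNA, 19, 24, 24 and 23 with bicuculline, 21, 23, 28 and 26 at baseline with Dnmt3a1-shRNA and 26, 18, 24 and 15 with both. The control baseline libraries stood above the 12 others, and those 12 overlapped across their 3 groups. Kdr was at 48.3% of the control level after knockdown at baseline (log2 fold change -1.05, SE 0.22, adjusted p = 0.00290) and at 47.3% after bicuculline in the Control-shRNA cultures (-1.08, SE 0.22, adjusted p = 0.000688). Both comparisons share the control baseline libraries and are not independent of each other.

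After knockdown, bicuculline moved Kdr by -0.07 (SE 0.24, adjusted p = 0.834), and with bicuculline, knockdown moved it by -0.04 (SE 0.24, adjusted p = 0.926). The interaction, the difference between these differences, was 1.01 (SE 0.32, unadjusted p = 0.00640) but had an adjusted p of 0.838 over all genes and was not called. Among all genes 0.00% were called for interaction with edgeR, 852 of 17222 (4.95%) had an unadjusted p under 0.05, and DESeq2 called 18 genes, with no VEGF family member among them. Leaving out any 1 library kept both Kdr calls, with log2 fold changes between -1.24 and -0.93 for bicuculline and between -1.21 and -0.90 for knockdown. On the log2(TPM + 1) scale, which shrinks the change of such a scarce gene, the values were -0.36 and -0.32, under the fold limit. The counts of 15 to 67 per library limit the precision of these values.

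Kdr is itself a gene of endothelial cells in most tissues, and the endothelial markers are given beside it. Their summed level was 12.3 to 14.5 CPM at baseline with Control-shRNA and 9.00 to 11.6 CPM with Dnmt3a1-shRNA, without overlap, 11.9 to 15.9 CPM with bicuculline and Control-shRNA and 9.86 to 11.9 CPM with bicuculline and Dnmt3a1-shRNA. Most of that sum was Egfl7, which at baseline averaged 9.19 CPM in the control and 5.88 CPM in the knockdown cultures. The cadherin gene Cdh5 was at 0.361 and 0.491 CPM in these groups and Pecam1 at 0.688 and 0.880 CPM. Of the 6 endothelial markers tested, 1 was called higher and 1 lower after knockdown at baseline (median log2 fold change 0.21), and none was called with bicuculline in the Control-shRNA cultures, with a median of -0.02. Tek, the marker called higher, passed the filter on low counts through the knockdown libraries. The part of cell composition in the Kdr values was not tested.

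At baseline, 1 of the 7 tested members was called after knockdown, against 5.83% of all genes (1.76% higher and 4.07% lower), and with bicuculline none was, against 5.89% of all genes (2.0% higher and 3.9% lower). DESeq2 also called no member after knockdown with bicuculline, against 1022 of all 17222 genes. The groups did not overlap for 1 member at baseline, Kdr, and for none with bicuculline, beside 19.9% and 20.9% of all genes.

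Flt1, which encodes the decoy-like receptor VEGFR1 (chr5:147561604-147726011, minus strand), had 4 to 18 counts per library. It had 10, 5, 9 and 4 counts at baseline and 18, 14, 11 and 13 with bicuculline in the Dnmt3a1-shRNA cultures, and 13, 10, 6 and 11 against 13, 11, 16 and 12 in the Control-shRNA cultures. In the Dnmt3a1-shRNA cultures the bicuculline libraries were all above the baseline libraries, with a log2 fold change of 1.15 (SE 0.33, adjusted p = 0.00811), and in the Control-shRNA cultures, with overlap, the value was 0.53 (SE 0.32, adjusted p = 0.195). Flt1 passed the filter on low counts through the bicuculline libraries and was removed by it when the baseline groups were fitted alone, so its entry into the test was not independent of this difference. With no filter the values were 1.14 (adjusted p = 0.0255) and 0.53 (adjusted p = 0.414), and with at least 10 counts required in every library Flt1 was not tested. The difference between the arms was 0.62 (SE 0.46, adjusted p = 1.0). The TPM of Flt1 in replicate 1 of the Dnmt3a1-shRNA bicuculline group was 1.42, beside 0.165, 0.111 and 0.128 in the other 3, although its count of 18 was not far above their 14, 11 and 13.

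Flt4, the gene of VEGFR3 (chr11:49609263-49652739, plus strand), was below the filter at 2 to 10 counts per library and was compared by a two-sided exact permutation test of log2(CPM + 0.1). The 4 pairwise differences lay between -0.25 and 0.42, with exact p from 0.314 to 0.8, where the smallest p that 4 against 4 libraries allow is 0.0286. No change in Flt4 was detected at this depth.

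**Figure D3:**
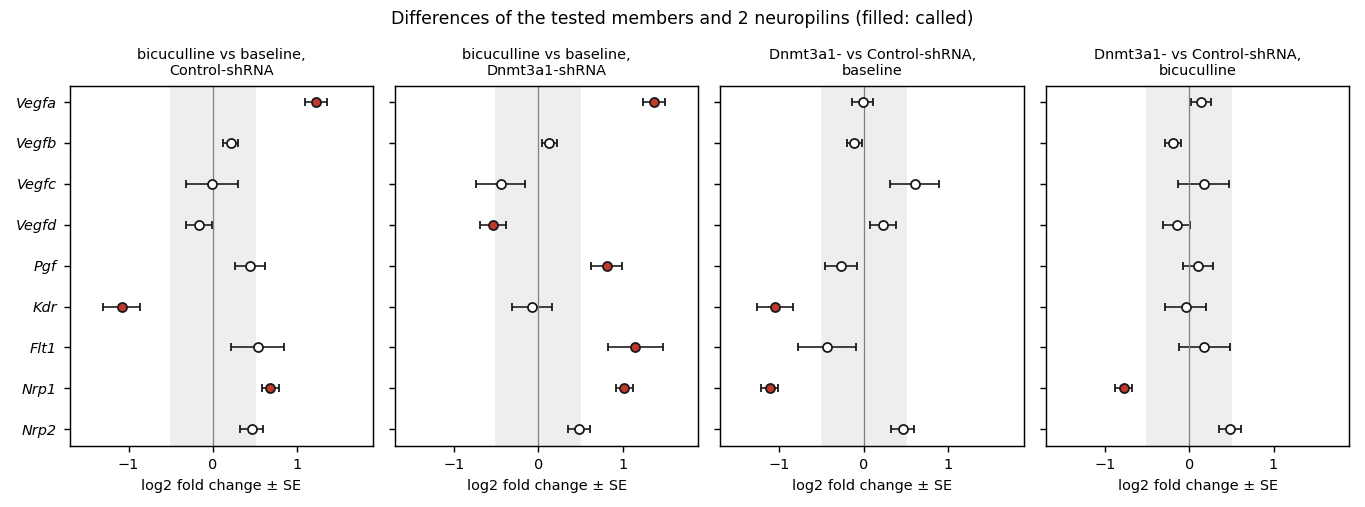
Log2 fold change with its SE for the 7 tested members and the neuropilins Nrp1 and Nrp2 in the 4 comparisons (filled points, called; grey band, absolute log2 fold change up to 0.5). Vegfa lies at 1.22 and 1.37 with bicuculline and near 0 with knockdown, Kdr lies at -1.08 and -1.05 in the comparisons that use the Control-shRNA baseline, and Nrp1 is filled in all 4.

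The neuropilins were the abundant VEGF receptors of these cultures. Nrp1 was at 82.1 ± 6.66 TPM and Nrp2 at 52.3 ± 3.25 TPM at baseline with Control-shRNA, beside 0.609 TPM for Kdr. Nrp1 was at 138, 124, 123 and 151 CPM at baseline and at 222, 203, 200 and 236 CPM with bicuculline in the Control-shRNA cultures, and at 70.5, 51.1, 55.7 and 70.6 CPM against 129, 134, 116 and 124 CPM in the Dnmt3a1-shRNA cultures. It rose with bicuculline in both arms (0.68, SE 0.10, and 1.02, SE 0.10, adjusted p = 2.79e-05 and 2.73e-07) and fell with knockdown by 1.11 at baseline and by 0.78 with bicuculline (SE 0.10 each, adjusted p = 9.89e-07 and 4.28e-05). The bicuculline libraries after knockdown, at 116 to 134 CPM, overlapped the control baseline libraries. The study took Nrp1 forward from these same libraries, so its fall here is not evidence independent of that choice. The paper also reported lower Nrp1 by qRT-PCR in separate bicuculline-treated cultures with each of its Dnmt3a1 hairpins. Nrp2 was higher in all 4 comparisons by between 0.46 and 0.48 (SE 0.13 each, adjusted p from 0.00682 to 0.0258), which is under the fold limit, so it was not called. That turned on single libraries, since leaving out 1 library raised its value above the limit in each comparison, to 0.51 with bicuculline and Control-shRNA (without baseline replicate 1), to 0.59 with bicuculline and Dnmt3a1-shRNA (without baseline replicate 1), to 0.57 after knockdown at baseline (without Dnmt3a1-shRNA replicate 3) and to 0.57 after knockdown with bicuculline (without Dnmt3a1-shRNA replicate 3).

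Co-receptors and genes that handle VEGF ligands, a list that includes both neuropilins, were called in both directions with bicuculline. Of 18 genes, all tested, 4 were higher, Nrp1 among them, and 4 lower in the Control-shRNA cultures (44.4% called, against 21.9% of all genes), and 4 higher, again with Nrp1, and 2 lower in the Dnmt3a1-shRNA cultures (33.3% against 25.8%). Esm1, a secreted proteoglycan induced by VEGF in vessels, went from 0.133 ± 0.0784 to 1.63 ± 0.397 CPM with Control-shRNA (log2 fold change 3.57, SE 0.33, adjusted p = 1.31e-07) and from 0.109 ± 0.0699 to 2.80 ± 0.160 CPM with Dnmt3a1-shRNA (4.64, SE 0.33, adjusted p = 4.30e-09). Esm1 passed the filter on low counts through the bicuculline libraries, so its entry into the test was not independent of this rise. Its mean of 1.17 CPM over all libraries, which let it be named, rests on the same libraries. Efnb2, a membrane ligand needed for uptake of VEGF receptors, rose by 1.12 and 1.06 in the 2 arms. Ccbe1, which helps to process VEGFC into an active ligand, fell by 0.90 and 1.17 (adjusted p = 7.68e-06 and 3.47e-07). Among the others called with Control-shRNA, named after their values were seen, Itgav rose by 0.57 and Ptprb, Ptprj and Plxna1 fell by 1.22, 0.55 and 0.55. The Ptprb value had an SE of 0.32, at a mean of only 0.485 CPM over all libraries. With Dnmt3a1-shRNA Ptprb and Ptprj were not called (-0.55 and -0.44), while Itgav and Plxna1 were (0.75 and -0.62).

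After knockdown the same list held 2 lower genes at baseline, Nrp1 and Itgb3 (11.1% called, against 5.83% of all genes), and 2 lower and 1 higher with bicuculline (16.7% against 5.89%). Itgb3, the beta 3 integrin that pairs with alpha V and associates with VEGFR2, fell by 2.14 at baseline (SE 0.18, from 3.05 ± 0.471 to 0.691 ± 0.0767 CPM, adjusted p = 3.97e-07) and by 1.67 with bicuculline (SE 0.18, adjusted p = 6.50e-06). Esm1 was higher by 0.77 with bicuculline (SE 0.23, adjusted p = 0.0273), a call lost on leaving out any 1 of 6 libraries (adjusted p from 0.0592 to 0.0805).

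Of 37 genes that carry the VEGFR2 signal inside the cell, 35 were tested, and 4 were higher and 1 lower with bicuculline in the Control-shRNA cultures (14.3% called, against 21.9% of all genes). The stress kinase Mapkapk2 rose by 1.15, the sphingosine kinase Sphk1 by 0.98, the transcription factor Nfatc2 by 0.75 and Mapkapk3 by 0.60 (0.47 without control baseline replicate 1, under the fold limit), and the lipid kinase gene Pik3cd, named after its value was seen, fell by 0.58. In the Dnmt3a1-shRNA cultures 3 were higher, namely Mapkapk2, Sphk1 and Nfatc2, and Pik3cd fell by 0.76 (SE 0.08, adjusted p = 8.77e-07), which made 11.4% called against 25.8% of all genes. After knockdown 1 gene was called at baseline (2.86% against 5.83% of all genes), the calcineurin regulator Rcan1, higher by 0.52 (SE 0.13, adjusted p = 0.00935), and none with bicuculline. The Rcan1 value went under the fold limit on leaving out any 1 of 3 libraries (0.46 to 0.49).

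Oxygen supply acts on Vegfa through HIF and its regulators. The 13 genes of that list, all tested, held 2 higher in each arm with bicuculline (15.4% called, against 21.9% and 25.8% of all genes), Cited2, a competitor of HIF for its co-activators (1.5 and 1.46), and Egln3, a HIF prolyl hydroxylase (0.71 and 0.77), and none after knockdown. Hif1a itself differed by 0.04 (SE 0.06, adjusted p = 0.606) with Control-shRNA and by -0.07 (SE 0.06, adjusted p = 0.319) with Dnmt3a1-shRNA, and its sign in the former turned under scaling by library size alone (-0.12). Epas1, the gene of HIF-2 alpha, was not called in any comparison, with values from 0.35 to 0.64. With the replicate number as a block it was called higher with bicuculline in the Control-shRNA cultures (0.50, adjusted p = 0.00625) and after knockdown at baseline (0.63, adjusted p = 0.00249) and with bicuculline (0.51, adjusted p = 0.00813). The astrocyte marker median was 0.31 to 0.41 in these comparisons, and its part in the Epas1 values was not tested. Vhl, which marks HIF for degradation, was at 76.0% of control at baseline and at 73.3% with bicuculline after knockdown (-0.40 and -0.45, SE 0.08 each, adjusted p = 0.00207 and 0.000856), under the fold limit. Vhl was called under 1 of 26 alternatives at baseline and under 3 of 26 with bicuculline, at values down to -0.513 and -0.525.

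HIF target genes were called with bicuculline in both directions. Of 19 tested genes, 6 were higher and 2 lower with Control-shRNA (42.1% called, against 21.9% of all genes) and 8 higher and 2 lower with Dnmt3a1-shRNA (52.6% against 25.8%), with a list median of 0.31 and 0.36 beside 0.01 and -0.01 over all genes. The glucose transporters led, Slc2a1 rising by 2.63 and 2.18 (adjusted p = 2.45e-11 and 1.68e-10) and the neuronal Slc2a3 by 2.11 and 2.22 (adjusted p = 1.24e-13 and 5.52e-14). The vasodilator peptide gene Adm rose by 1.85 and 1.86, and Mxi1, a Myc antagonist, by 1.07 and 1.09. The glycolytic enzyme Hk2 rose by 0.73 (SE 0.27, adjusted p = 0.0372) and 1.42 (SE 0.28, adjusted p = 0.00037). The called genes that fell, named after their values were seen, were Ndrg1 and P4ha2 with Control-shRNA (-0.70 and -0.56). With Dnmt3a1-shRNA they were Ndrg1 and Ankrd37 (-1.30 and -0.73). Of the 19 genes, 11 were not called with Control-shRNA and 9 were not with Dnmt3a1-shRNA. After knockdown no HIF target was called at baseline, and with bicuculline Ndrg1 and Ankrd37 had log2 fold changes of -0.98 and -0.73, the latter lost on leaving out any 1 of 5 libraries (adjusted p from 0.0749 to 0.129). Oxygen was not measured in the cultures.

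The nearest relatives of the family are the PDGF ligands and receptors. Of these 7 genes, 2 were higher with bicuculline in the Control-shRNA cultures (28.6% called, against 21.9% of all genes), the ligand Pdgfb by 0.65 (SE 0.09) and the receptor Pdgfrb by 0.56 (SE 0.19, lost on leaving out any 1 of 4 libraries, adjusted p from 0.0569 to 0.0821), and Pdgfb also rose in the Dnmt3a1-shRNA cultures, by 0.58. Pdgfb was the only call there (14.3%, against 25.8% of all genes). After knockdown at baseline Pdgfrb, which is also a mural marker, was higher by 0.75 (SE 0.19, adjusted p = 0.00971), where the mural markers had a median of 0.33, and the part of cell composition was not tested. Pdgfrb was the only PDGF gene called in that comparison (14.3%, against 5.83% of all genes). Of 17 other angiogenic genes, 14 were tested, and with bicuculline 3 were called in the Control-shRNA cultures (21.4%, against 21.9% of all genes) and 5 in the Dnmt3a1-shRNA cultures (35.7% against 25.8%). The FGF receptor gene Fgfr1 rose by 1.41 and 1.56 with bicuculline, from 137 ± 6.34 to 364 ± 50 CPM in the Control-shRNA cultures, and Thbs1, an inhibitor of vessel growth, rose by 1.11 there (SE 0.29, adjusted p = 0.00541) with overlapping libraries. Apln, Ednra and Ednrb, which encode a vessel-active peptide and the endothelin receptors, were higher with bicuculline by 0.75, 0.67 and 0.57 in the Dnmt3a1-shRNA cultures, beside 0.49, 0.35 and 0.55 in the Control-shRNA cultures, which were not called (adjusted p = 0.24, 0.312 and 0.0592). A difference between the arms was not called for any of them, and their calls were lost on leaving out any 1 of 10, 4 and 8 libraries, respectively, with adjusted p up to 0.135. The genes of this list called at a mean below 1 CPM, named after their values were seen, were Dll4, which fell by 0.93 and 1.25 with bicuculline, and the angiopoietin receptor Tek, which was higher by 1.12 and 1.65 after knockdown. Tek was the only gene of the list called after knockdown, 7.14% of those tested in each comparison, against 5.83% and 5.89% of all genes. Tek had 2 to 6 counts per library with Control-shRNA and 5 to 14 with Dnmt3a1-shRNA. It passed the filter on low counts through the knockdown libraries, so its entry into the test was not independent of this difference.

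**Figure D4:**
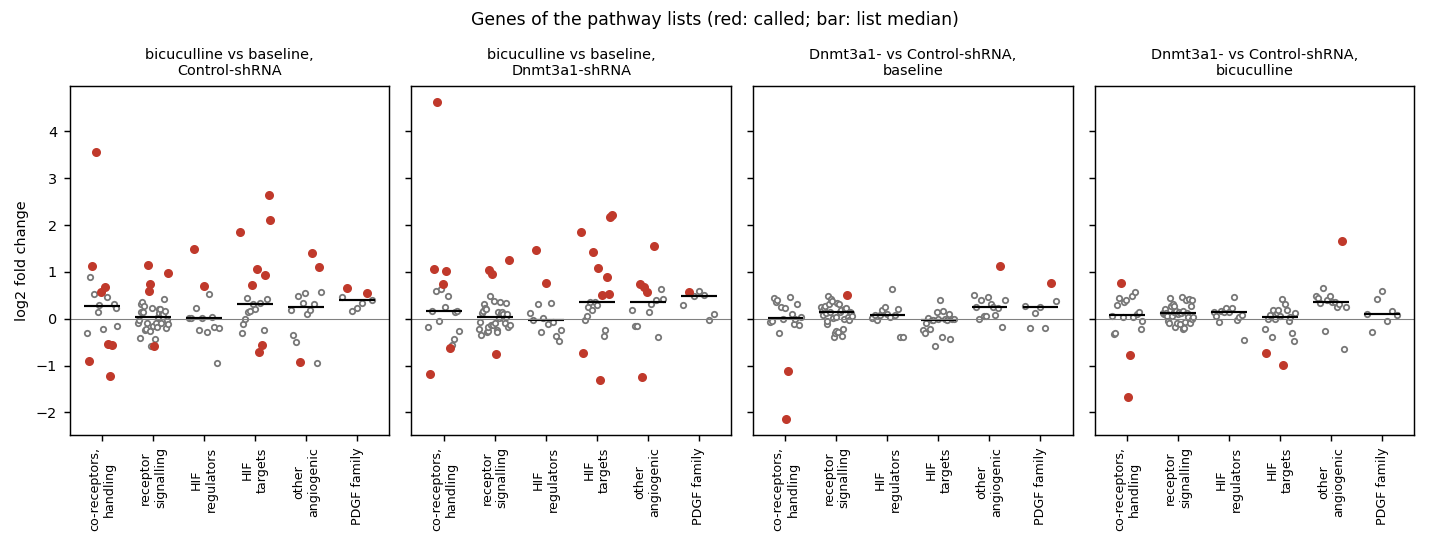
Log2 fold change of each tested gene of the 6 pathway lists in the 4 comparisons (1 point a gene; red, called; bar, list median). With bicuculline the co-receptor and HIF target lists spread widely, up to 3.57 and 4.64 for Esm1, while after knockdown the called points are few and the lowest is Itgb3 at -2.14. Esm1 passed the filter on low counts through its bicuculline libraries.

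The tested genes whose log2 CPM most resembled each called member over the 16 libraries are given as a description, since all points share the bicuculline and knockdown groups. For Vegfa these were Ing2, Ifrd1 and Rabgef1 (Pearson r = 0.987, 0.983 and 0.983), all higher with bicuculline in both arms. For Kdr they were Zfp691, Gatad2b and Prkaa1 (r = 0.882, 0.880 and 0.878), with Gatad2b at 91.4 CPM on average in the control baseline group and at 62.9, 64.6 and 55.5 CPM in the other 3. For Vegfd they were Scaf11, Ccdc39 and Rbm48 (r from 0.840 to 0.869), for Pgf Bbs5, Pnoc and Sgms2 (r from 0.877 to 0.901) and for Flt1 Vax1, Xkr6 and Slc18a2 (r from 0.893 to 0.921).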

How the data were processed

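Total RNA of the 16 cultures was sequenced as paired-end libraries on a BGISeq instrument. The authors trimmed reads with Trim Galore (0.6.4 in the submitters' processing notes), quantified them with kallisto (0.4.6 in those notes) on GRCm38.p6 transcripts, and deposited an estimated count per gene, summed over its transcripts, and a TPM value per gene, scaled for transcript length and library total. Symbols and positions came from GENCODE M21, in which all 8 members have 1 identifier of the same version.

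Estimated counts were rounded and fitted with edgeR 4.0.16 (R 4.3.3; TMM, filterByExpr, quasi-likelihood) in 1 model of the 4 groups, leaving 17222 genes, with Benjamini-Hochberg adjustment over all of them. A call is an adjusted p under 0.05 with an absolute log2 fold change over 0.5, and for the interaction the adjusted p alone. Flt4, below the filter, was compared by an exact permutation test. Tests were checked on simulated data. The members and lists were chosen with earlier results of these data known. Named genes were the members, Nrp1, Nrp2, Hif1a, Epas1, Vhl, the genes that check the labels (Dnmt3a, Arc, Fos, Npas4), up to 4 called genes of each list and comparison with the largest fold change at a mean of at least 1 CPM, and 3 genes most like each called member. Aldoa, with 2 identifiers, was left out. Libraries of a group differed by more than sampling noise in every pair, with 7.14 to 39.8 as the chi-square divided by its degrees of freedom.

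Groups and replicate numbers came from the labels. Deviations from the group means of same-numbered libraries correlated at 0.142 to 0.221 for bicuculline with Control-shRNA and at 0.204 to 0.355 for knockdown at baseline, so the numbers were read as pairing there. In the other comparisons 1 number was under 0.1 (0.0631 and 0.0667). The main values come from the fit without this pairing. With the replicate number as a block, 1284 genes rather than 1004 were called for knockdown at baseline. For bicuculline with Control-shRNA the block gave 3986 rather than 3765. Alternatives were DESeq2 1.42.0, voom with limma 3.58.1, limma on log2(TPM + 1) and log2(TPM + 0.1), other scalings, filters and fold limits, the replicate number as a block, the 2 groups alone and each library left out.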

Additional observations from a re-analysis of the deposited data

Results flagged for a closer look

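Each member was examined in each group, in CPM and in TPM (64 looks), for a library far from the other 3 by Dixon's criterion, which chance meets in about 1 in 20 groups, and 2 libraries met it, both in TPM. The Flt1 TPM of 1.42 in replicate 1 of the Dnmt3a1-shRNA bicuculline group stood apart from 0.111 to 0.165 TPM, whereas its count of 18 lay near the 11 to 14 counts of the other libraries. The Vegfc TPM of 0.822 in replicate 2 of the Control-shRNA bicuculline group stood apart from 0.605 to 0.623 TPM, on 26 counts beside 19 to 22. Neither library stood apart for its gene in CPM. The cause was not tested.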

How the results depend on the processing

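The number of members called with bicuculline in the Control-shRNA cultures (2) became 1 with limma on log2(TPM + 1). In the Dnmt3a1-shRNA cultures the 4 calls became 2 with limma on log2(TPM + 1) 2 with a limit of 1 on the log2 fold change and 3 with at least 10 counts required in every library, where Flt1 was no longer tested, and the call after knockdown at baseline (1) became 0 with limma on log2(TPM + 1), where the pseudocount shrinks scarce genes. With any 1 library left out there were 2, 3 to 5 and 1 calls in these comparisons, and 0 after knockdown with bicuculline and for the interaction. With the replicate number as a block (pairing by number) the counts stayed at 2, 4, 1, 0 and 0, and the block changed no call beside those of Epas1. Vegfa kept its direction and both calls with bicuculline under all 26 alternatives each, with log2 fold changes from 0.95 to 1.32 and from 1.17 to 1.48.

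Signs turned where the value was near 0. Vegfb with bicuculline was -0.00726 and -0.0074 in TPM with pseudocounts of 1 and 0.1 in the Control-shRNA cultures, and -0.074, -0.0748 and, with library sizes only, -0.0185 in the Dnmt3a1-shRNA cultures. Vegfc with bicuculline and Control-shRNA was 0.00476 with DESeq2's size factors, 0.0124 with the block, 0.0054 with DESeq2 and 0.0729 with voom. Pgf after knockdown with bicuculline was -0.0128 and -0.017 in TPM. Hif1a was -0.117, -0.162 and -0.165 with bicuculline in the Control-shRNA cultures, and -0.000238, -0.033 and -0.0336 after knockdown at baseline, with library sizes only and in TPM with both pseudocounts. Flt4 with bicuculline and Dnmt3a1-shRNA was -0.0165 with library sizes only. Without 1 library the values ran from -0.122 to 0.0413 for Vegfa after knockdown at baseline, from -0.226 to 0.183 for Vegfc with bicuculline and Control-shRNA, from -0.199 to 0.308 for Vegfc, from -0.0758 to 0.242 for Pgf and from -0.206 to 0.0836 for Kdr after knockdown with bicuculline, from -0.238 to 0.0522 for Kdr and from -0.105 to 0.297 for Flt4 with bicuculline after knockdown, and from -0.131 to 0.288 for Flt4 after knockdown at baseline. Of 2546 values of single genes under alternatives, 2406 kept direction and side of the threshold, 84 lost and 19 gained a call and 37 changed sign. The 2 to 67 counts of Kdr, Vegfc, Flt1 and Flt4 per library limit what could be seen.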
